A study of Gasterosteus aculeatus with 29 samples.

Results

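A set of 100 genes was chosen by the difference between offspring of predation-exposed and unexposed fathers, seen once among offspring that met no predation risk themselves and again among offspring that did. The RNA came from whole brains of the stickleback Gasterosteus aculeatus, measured in individual offspring of 10 fathers by poly-A RNA sequencing. The groups were neither exposure (5 libraries), paternal exposure only (8), personal exposure only (9) and both exposures (7). Fathers met predation risk while tending their broods (5 fathers) or did not (5 fathers), and within families the young were or were not exposed as juveniles. The age at sampling, the strain and the kind of predation cue are not given in the sources used here.

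In this species the male alone tends the eggs and the newly hatched young, so what he meets during care can reach the brood through his behaviour. Offspring of stressed fish parents are known to differ in growth, in antipredator behaviour and in stress hormone responses. The factorial design asks whether the father's experience and the fish's own experience act alike or together, and these genes were picked for a paternal difference that recurs in both offspring conditions.

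The members were selected on log2 CPM, the authors' measure of read abundance scaled to library depth. Libraries neither replicate 3 and both replicate 7 were left out of the rule, which leaves 27 libraries. Of 17730 genes, 16593 had log2 CPM above 0 in at least 5 of them. A pooled 2-sample t was taken of paternal only against neither and of both against personal only, which share no fish. The t values had the same sign in 10599 genes (63.9%). An absolute t under 1 for personal only against neither was required as well, which left 7156 genes. They were ranked by the smaller absolute t, and the first 100 were kept, 50 of them higher and 50 lower in offspring of exposed fathers. All 100 passed the filter on low values, because the rule applied it first. The smaller absolute t ran from 3.52 at rank 1 to 2.087 at rank 100, and the first gene left out had 2.086. The average paternal difference was -0.17 log2 CPM in the last member and -0.22 in the first gene left out. Among genes meeting the criterion on personal exposure, 3275 had t values of opposite sign, and 0 of these reached the smaller t of the last member. Without that criterion 302 genes of equal sign and 3 of opposite sign reached it. These values chose the members, so the paternal differences below describe the selection and carry no test.

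The comparisons share no fish, but they share families. Of the exposed fathers, 4 of 5 had young in both comparisons, and of the unexposed fathers 3 of 5. Effects of exposure and other differences between these fathers and broods cannot be told apart where the same fathers recur.

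Library depth in the gene table ran from 2844706 to 47411814 reads in the 13 libraries of unexposed fathers (median 6015286) and from 2244609 to 55155451 in the 14 of exposed fathers (median 8209436). By group the median depth was 7298959 in neither and 5291187 in paternal only. It was 6015286 in personal only and 11140376 in both, so depth differed in opposite directions in the compared pairs. Neither replicate 3 stood apart, with an interquartile range over genes of 1.52 log2 units from the median library, against 0.248 to 0.479 in the 27. Both replicate 7 was labelled male, but 183 of 189 genes with a sex difference of at least 2-fold lay nearer the female mean there. In the 27 libraries that number was 1 to 29 in males and 171 to 184 in females. Neither replicate 3, also labelled male, had 75, outside both ranges. Gene symbols could not be matched to the identifiers, so neither gene functions nor the brain label, through cell markers, could be checked. For this reason 4 genes are given by identifier and the other members by rank. A lower value in whole brain can come from fewer cells of a type or from less RNA per cell, which cannot be told apart.

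**Figure D1:**
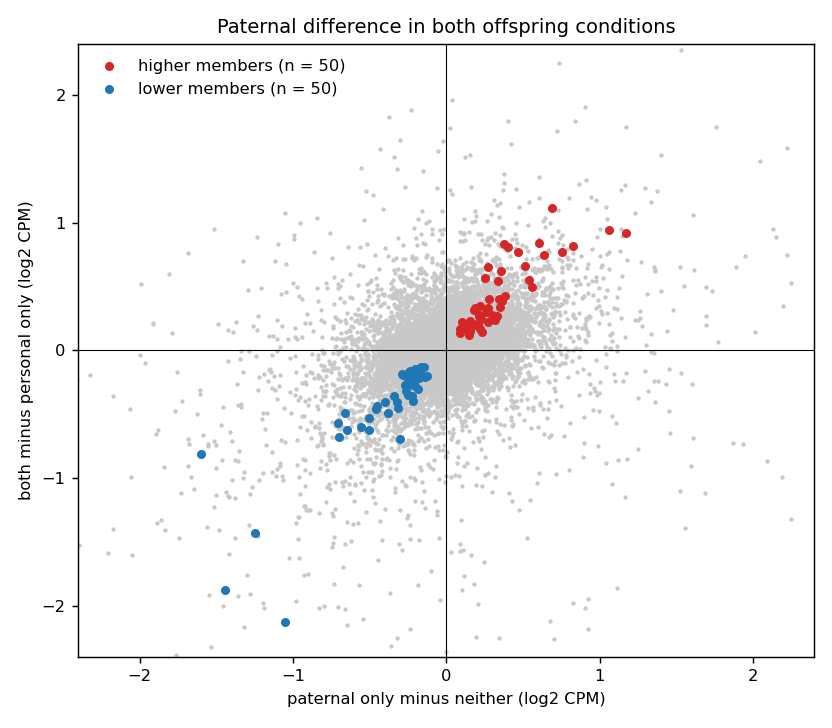
Difference between paternal only and neither (x axis, log2 CPM) against the difference between both and personal only (y axis, log2 CPM) for each of 16593 genes, with the 50 higher members in red, the 50 lower in blue and other genes in grey. The axes end at 2.4, which leaves out 55 grey genes. Members lie where both differences have the same sign, as the rule requires, and most of them at small differences.

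Most members differed little in size. Among the higher members the paternal difference averaged over both comparisons ran from 0.11 to 1.04 log2 CPM, with a median of 0.29, or 1.22-fold. Among the lower members it ran from -1.66 to -0.14, with a median of -0.26, or 0.838-fold. The median size over all genes tested was 0.11. A difference of at least 1.5-fold was held by 18 of the 100 members, where 4.09% of genes tested reached it, and 6 reached 2-fold, against 1.28%. The members were chosen on t, which favours genes of small spread. Their pooled standard deviation within groups had a median of 0.18 log2 CPM, against 0.25 over genes tested.

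The members were spread over the range of expression. Their mean log2 CPM ran from -0.34 to 8.32 for the higher members (median 4.19) and from -1.02 to 6.86 for the lower (median 4.11), where the genes tested had a median of 3.54. Their median read count per library was 10 to 4846, with 288 in the middle member. A single member had 0 reads in at least 1 of the 27 libraries.

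Among the higher members, ENSGACG00000018748 came first, at rank 2. It had 1.26, 1.03, 1.73 and 1.14 log2 CPM in neither replicates 1, 2, 4 and 5, and 1.66 to 3.65 in paternal only (median 2.34). In personal only it had 0.94 to 2.73 (median 1.31) and in both 1.40 to 3.08 (median 2.64). One library of personal only, replicate 9 of father M41, was as high as the exposed families, and both replicate 1 was as low as the unexposed. Both and personal only therefore overlapped. So did paternal only and neither, since neither replicate 4 at 1.73 was above the lowest paternal only library. The differences were 1.17 among unexposed young and 0.92 among exposed young, on average 2.06-fold. The reads behind these values were few, from 17 to 999 per library. Its fathers overlapped, since the mean of M41 was 2.00 and that of M9, an exposed father, 1.94.

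ENSGACG00000016637, at rank 3, had 1.63, 1.52, 1.25 and 1.54 log2 CPM in neither and 1.59 to 2.32 in paternal only (median 1.87). It had 0.61 to 1.93 in personal only (median 1.31) and 1.35 to 2.71 in both (median 2.26). Single fish overlapped, whereas the means of the fathers did not, at 1.81 to 2.37 for the exposed and 0.78 to 1.75 for the unexposed. The difference was larger among personally exposed young, at 0.77, than among the unexposed, at 0.47. It had 17 to 772 reads per library.

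The member with the highest smaller t was a lower one. ENSGACG00000014779 had 4.07, 4.11, 4.20 and 4.16 log2 CPM in neither and 3.65 to 4.08 in paternal only (median 3.86). It had 3.86 to 4.21 in personal only (median 4.11) and 3.52 to 4.08 in both (median 3.74). The neither libraries lay close together, and only the highest library of paternal only reached their lowest. The differences were -0.27 and -0.32, on average 0.816-fold. Father means ran from 3.70 to 3.93 in exposed and from 3.99 to 4.19 in unexposed families, without overlap.

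ENSGACG00000005124, at rank 5, had 4.78, 4.64, 4.67 and 4.65 log2 CPM in neither and 4.33 to 4.70 in paternal only (median 4.47). In personal only it had 4.39 to 4.83 (median 4.65), and in both 4.12 to 4.58 (median 4.28). Single fish overlapped in each comparison, and father means did not, at 4.27 to 4.48 against 4.52 to 4.72. The differences were -0.19 and -0.30, on average 0.844-fold.

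**Figure D2:**
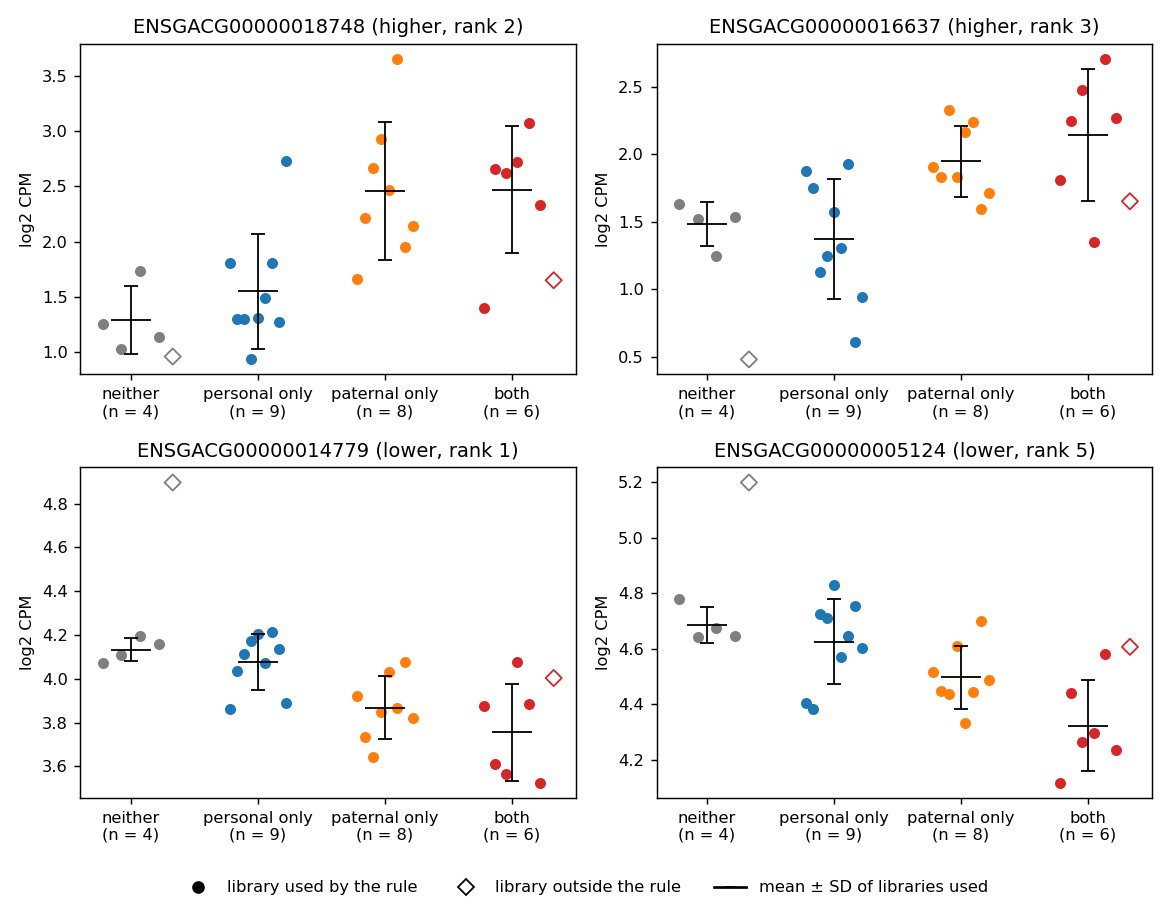
Log2 CPM (y axis) of the first 2 higher and first 2 lower members in each library of the 4 groups (x axis), with the mean and standard deviation of the libraries used by the rule and open diamonds for the libraries outside it. The lower pair has narrow groups, with ENSGACG00000014779 at 4.07 to 4.20 in neither, whereas personal only replicate 9 reaches 2.73 for ENSGACG00000018748.

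The following members were picked out after their values were seen. The member at rank 25 had 5.48, 4.67, 3.83 and 5.12 log2 CPM in neither, with 1.91 to 4.20 in paternal only (median 3.93). It had 2.35 to 5.36 in personal only (median 4.77) and 1.62 to 3.79 in both (median 3.05). On average it was 0.396-fold as high in offspring of exposed fathers, but it varied widely among families, with a mean of 2.16 for M15 and of 3.30 for the unexposed father M41. The member at rank 36 had 5.77, 5.27, 5.77 and 6.03 log2 CPM in neither, 4.55 to 5.78 in paternal only (median 4.88), 5.04 to 6.11 in personal only (median 5.71) and 4.19 to 5.57 in both (median 5.13), 0.642-fold on average. The lower members with the largest differences, at ranks 63 and 33, had medians of 10 and 18 reads per library. Their average paternal differences of -1.66 and -1.59 therefore rest on few reads.

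Separation between single fish was uncommon. Paternal only and neither did not overlap in 3 of 50 higher members, where 0.56% of genes tested had paternal only wholly above, and in 3 of 50 lower members, where 0.609% had it wholly below. Both and personal only overlapped in every member. Over genes tested, both lay wholly above personal only in 0.0904% and wholly below in 0.00603%. No gene tested, member or not, separated all 14 fish of exposed fathers from all 13 of unexposed fathers (0% in each direction). Means of the 5 exposed fathers lay above all 5 unexposed fathers in 12 of 50 higher members, against 0.633% of genes tested. They lay below in 13 of 50 lower members, against 0.464%. The rule used these contrasts, so nothing is read from these shares. In a limma fit over the 27 libraries, the average paternal effect was called in 0 members and in 0.0121% of genes tested (2 genes). The criterion on personal exposure barred those 2 genes from the members. This is again the contrast of the rule, on the libraries that chose the members, so it is no test of them and nothing is read from the 0.

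Averaged over the 50 higher members, after centring each gene on its mean over the 27 libraries, the level was -0.32 to -0.18 log2 CPM in neither (median -0.20) and 0.028 to 0.21 in paternal only (median 0.12). Personal only libraries had -0.34 to -0.014 (median -0.15), and those of both had 0.093 to 0.44 (median 0.26). The lower members mirrored this, with 0.20 to 0.31 in neither and -0.29 to 0.011 in paternal only. Their level was 0.073 to 0.31 in personal only, and in both it was -0.45 to -0.13. The summed level separated the fathers' groups without overlap, which the choice of members fixes. Within those groups the families were not alike. Among unexposed fathers the higher members averaged -0.28 in M33, -0.24 in M8 and -0.16 in M20, against -0.097 in M41 and -0.090 in M31, the fathers with personally exposed young only. Among exposed fathers they averaged 0.074 in M9, whose young were all without personal exposure, and 0.13 to 0.24 in the other 4. Fathers of 1 condition thus lay nearest the middle in the higher members. In the lower members M11 was nearest on the exposed side at -0.080, and M41 on the unexposed side at 0.098.

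**Figure D3:**
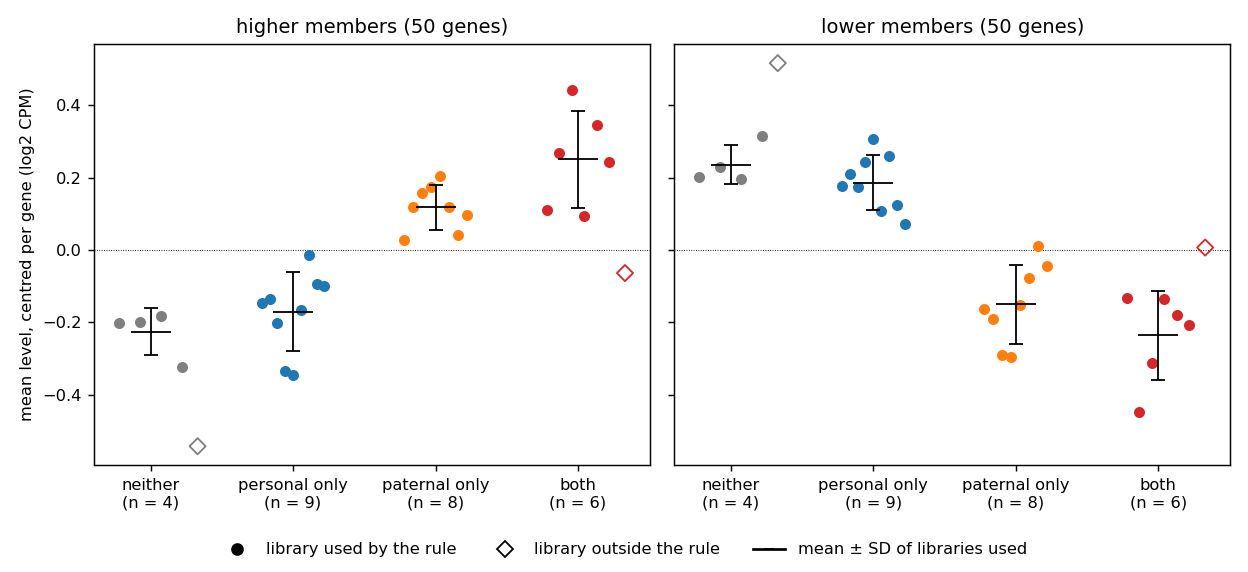
Mean level of the 50 higher members (left) and the 50 lower members (right) in each library, centred per gene (y axis, log2 CPM), by group (x axis), with mean and standard deviation of the libraries used. The open diamond of both replicate 7 lies at -0.064 on the left and 0.0068 on the right, outside the range of the other both libraries.

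Personal only and neither differed little, as the rule demanded. M31 and M41 had young in personal only alone and M9 in paternal only alone, so family and personal exposure are mixed in the differences below. Within M20 the mean centred level of the higher members was -0.20 in neither and -0.15 and -0.13 in personal only. In M8 it was -0.20 against -0.20 and -0.33, and in M33 -0.18 and -0.32 against -0.34. For the lower members it was 0.20 against 0.18 and 0.21 in M20, 0.23 against 0.17 and 0.24 in M8, and 0.20 and 0.31 against 0.31 in M33. The medians of personal only minus neither were 0.050 log2 CPM for the higher and -0.042 for the lower members. This small difference went the way of the paternal one in 75 of 100 members, and in 65.5% of genes tested. The neither libraries enter both differences with the same sign, which favours equal signs. The personal only libraries enter them with opposite signs, which favours unequal ones, and the share due to either was not tested. In families of exposed fathers, both minus paternal only had a median of 0.10 in the higher members, 43 of 50 of them above 0, and of -0.052 in the lower members, 34 of 50 of them below 0. Together 77 of 100 members were farther out in both than in paternal only, against 60.2% of genes tested. The paternal difference was larger among personally exposed young in 37 of 50 higher and 28 of 50 lower members, and in 44.9% of genes tested. The both libraries entered the rule, and these counts are descriptions. The widest gap between the comparisons was in the lower member at rank 33, with -1.05 among unexposed and -2.13 among exposed young. It leans on both replicate 2, which had 1 read and -3.97 log2 CPM, where the other both libraries of the rule had -1.23 to 0.011. Among higher members the gap was widest at rank 4, with 0.38 among unexposed and 0.83 among exposed young. Gaps also went the other way, with the difference among exposed minus that among unexposed young reaching 0.78 log2 CPM in a lower member.

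**Figure D4:**
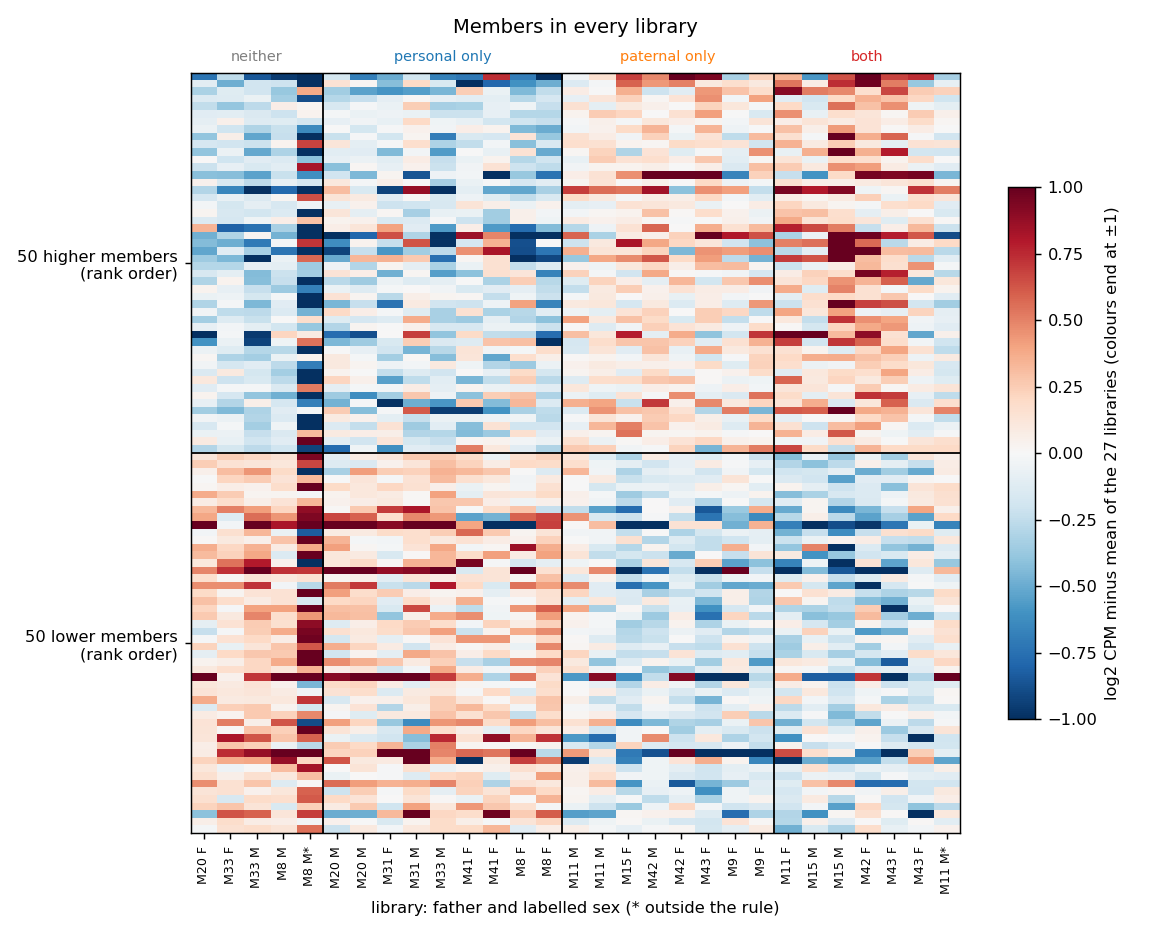
Log2 CPM of the 50 higher and 50 lower members (rows, in rank order) in all 29 libraries (columns, by group and father), as the difference from the mean of the 27 libraries used. Colours end at 1 log2 unit in each direction, and the library of father M8 marked with an asterisk in neither, replicate 3, reaches those ends in many rows.

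The libraries outside the rule are the only ones in which the paternal difference was not selected, and they are 1 fish of neither and 1 of both. Their fathers, M8 and M11, also had young among the 27 libraries, so these fish are not independent of the selection by family. For each member the midpoint between the means of the compared groups was taken from the other libraries. Members were chosen for differences that were large for their spread in those libraries. The shares over genes tested are therefore no like comparison for where either library lies. The library labelled both replicate 7, of exposed father M11, lay on the exposed side of the midpoint between personal only and both in 16 of 50 higher and 20 of 50 lower members. That is 36% of members, beside 45% of all genes tested, each gene taken in the direction of its own difference. It lay beyond the personal only mean toward the both mean in 68 of 100 members, against 55.7% of genes tested. Its median distance from the personal only mean was 0.089 log2 CPM in the higher members, where the both mean minus the personal only mean had a median of 0.32. In the lower members it was -0.099, where that median was -0.28. In 61 of 100 members its value was within the range of the other both libraries, and in 76.2% of genes tested.

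Neither replicate 3 lay on the unexposed side of the midpoint between neither and paternal only in 33 of 50 higher and 38 of 50 lower members. These are 71% of members, against 66.4% of genes tested. The library was wide of its group throughout. It was over 2-fold from the neither mean in 27 of 100 members and in 32.9% of genes tested, and within the range of the other neither libraries in 12 members, against 20.5% of genes tested. For the 4 genes given by identifier, it had 0.96 and 0.48 log2 CPM in the higher pair, below all other neither libraries. In the lower pair it had 4.90 and 5.20, above all of them. Both replicate 7 had 1.65 and 1.65, 4.00 and 4.61 in the same genes, between the means of personal only and both. As a single fish per group, neither library permits a test. The sex label of both replicate 7 goes against its values, and whether its father and group labels hold was not tested.

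**Figure D5:**
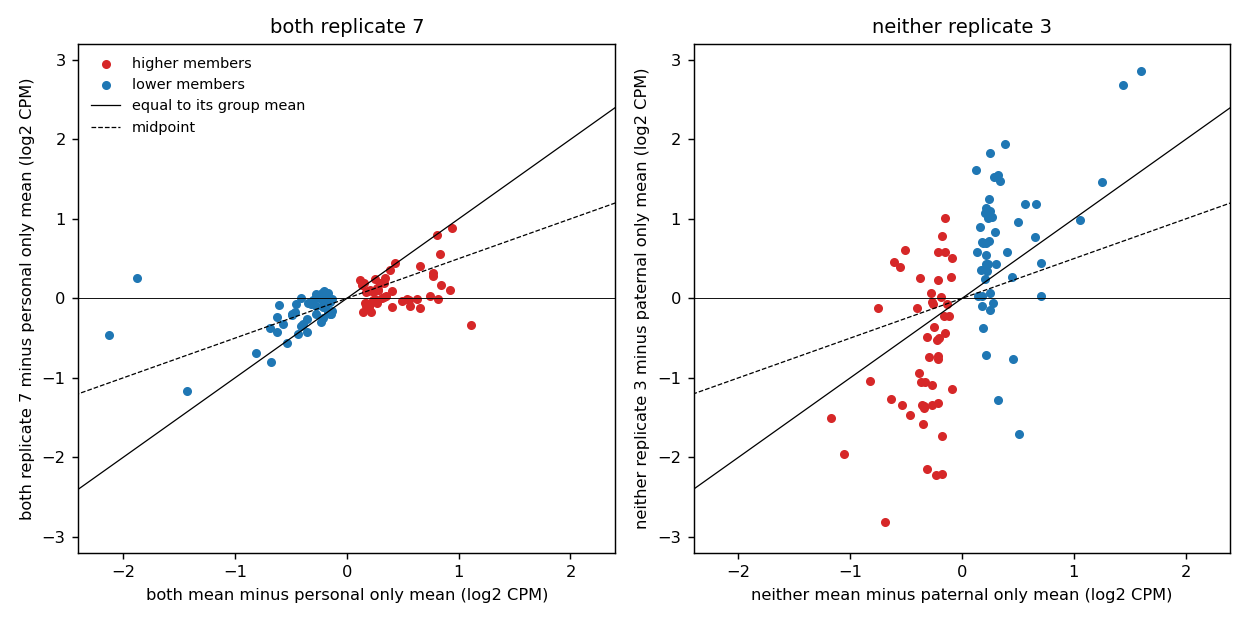
Position of each member in the library outside the rule (y axis, log2 CPM relative to the mean of the opposite group) against the difference between group means in the 27 libraries (x axis, log2 CPM), for both replicate 7 (left) and neither replicate 3 (right). Points beyond the dashed midpoint line, away from 0, are nearer the library's own group, as 36 of 100 members were in both replicate 7 and 71 in neither replicate 3.

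Sex was not a term of the rule and was tested in the limma fit with the 4 groups, sex and a random father term. Each group held both sexes, and the rule favours genes of small spread within groups, which lowers sex differences in members. Of the 100 members, 2 were called, against 3.67% of genes tested (609 genes). Both were lower members with lower values in females. The member at rank 92 differed by -0.39 ± 0.11 (SE, adjusted p = 0.0345) and that at rank 24 by -0.40 ± 0.11 (adjusted p = 0.0415), in 16 females and 11 males. At an unadjusted p under 0.05 there were 7 members and 13% of genes tested. The size of the sex difference had a median of 0.072 log2 CPM in members and 0.086 over genes tested. Values were higher in females in 23 of 50 higher and 12 of 50 lower members, and in 45.4% of genes tested. Members share libraries and families, so these counts are descriptions. The sex mix was uneven, with 9 females and 5 males of exposed fathers and 7 females and 6 males of unexposed fathers. Without father M11, M15, M33, M41, M42 or M43, 0 members were called by sex, and without father M9, M20 or M31, or neither replicate 4 or 5, 1 was. Over genes tested these fits called 3.09% to 3.6%.

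The paternal difference had the same direction in both sexes, which the choice of members on these same fish favours. Daughters numbered 2 in neither, 5 in paternal only, 5 in personal only and 4 in both. Sons numbered 2, 3, 4 and 2 in the same order, and those with both exposures were young of father M15 alone. The values in sons, and the comparison of the sexes, therefore rest on few fish and in part on 1 family. In daughters it had a median of 0.30 in the higher and -0.29 in the lower members, and in sons of 0.30 and -0.27, with the sign of the average in all 100 members in either sex. Over genes tested, daughters had that sign in 82.3% and sons in 77.8%. The rule used these fish, so nothing is read from these shares. Limma called 0 members for a difference between the effects in daughters and sons, and 0% of genes tested, with 4 members at an unadjusted p under 0.05 and 4.97% of genes tested. Limma-voom called 0 members and 0% of genes tested as well. The smallest adjusted p of a member in limma was 0.936.

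Differences among fathers of the same exposure, which are not the contrast of the rule, were tested with an F test over 8 contrasts. No member was called in limma, where 3.13% of genes tested were (520 genes). With lane as a term 0 members and 0.723% of genes tested (120 genes) were called, and limma-voom called 0 members and 2.37%. At an unadjusted p under 0.05 there were 19 members and 21.7% of genes tested. The smallest adjusted p of a member was 0.0636, at rank 36, whose father means ran from 5.06 to 5.97 among unexposed and from 4.71 to 5.51 among exposed fathers. The rule favours genes of small spread within groups, which lowers such differences.

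Sequencing lane was tested over the 5 lanes, each of which held fish of exposed and of unexposed fathers. Limma called 0 members and 0% of genes tested. At an unadjusted p under 0.05 there were 3 members and 5.67% of genes tested. Each group was spread over several lanes, and the rule favours genes of small spread within groups, which lowers lane differences in members. Limma-voom called 0 members and 0% of genes tested. Within lanes, all fish of exposed fathers were set against all fish of unexposed fathers whatever their own exposure. The median difference of the higher members was 0.19 in lane 4, 0.31 in lane 5, 0.43 in lane 6, 0.20 in lane 7 and 0.19 in lane 8. For the lower members it was -0.24, -0.31, -0.41, -0.15 and -0.24 in the same order. Lane 6, with the largest medians, had young of M33 alone on the unexposed side. The sign of the average held in every lane in 77 of 100 members, against 11.5% of genes tested. These are the libraries that chose the members, so nothing is read from this share.

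After removal of the group means, correlations among members from fish to fish were low on average. Over 27 libraries the mean Pearson r was 0.0969 for the 1225 pairs of higher members, 0.107 for the 1225 pairs of lower members and -0.0799 for the 2500 pairs across directions. The mean over all pairs of genes tested was 0.00105. It takes in pairs within and across directions, so it is no like comparison for pairs of 1 direction. Single pairs ranged from -0.752 to 0.886. The values of a pair share library, depth and family, and these correlations are descriptions only.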

How the data were processed

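Values for 17730 genes were deposited by the authors as log2 CPM. The submitters' processing notes name TopHat2 2.0.8, HTSeq 0.6.1, CASAVA 1.8.2 and edgeR. They name a mouse genome build, which does not go with stickleback identifiers, and the build and annotation used are not given in the sources used here. The reference table matched 0 identifiers. Whole reads were recovered from the steps of the deposited log2 values (100% whole within 0.01 reads), which gave library depths. Values near 0 reads are compressed by the prior, and overlapping or paralogous genes cannot be separated. Groups, fathers, sexes and lanes came from the labels. The labels' protocols count 9 fish for paternal exposure only, 1 of which was not analysed here. Replicates are individual fish, numbered in accession order, and fish of a family share a father.

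Members were found by the pooled t rule on 27 libraries. Tests used limma-trend on 16593 genes (R 4.3.3 with limma 3.58.1 and statmod 1.5.0), with Benjamini-Hochberg adjusted p-values over all of them and a threshold of 0.05. Group and sex were fixed and father a random block (consensus correlation 0.168), except for the F test among fathers, which had fixed father means. The tests were tested on simulated data. Alternatives changed the libraries, terms, filter, normalization and test, and left out each neither library and each father. The members and lists were chosen with earlier results of these data known. Without symbols, the first 2 higher and first 2 lower members are named. Lists of marker and pathway genes could not be matched.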

Additional observations from a re-analysis of the deposited data

Results flagged for a closer look

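A search for single libraries standing well away from their group covered 28 sets (the 4 named genes, the mean levels of the higher and of the lower members and the spread of each library, in each of the 4 groups), and 2 were found, where chance alone picks out about 1 set in 20. Personal only replicate 9, a female of father M41, had 2.728 log2 CPM of ENSGACG00000018748, and the other 8 libraries of the group had 0.936 to 1.811. Neither replicate 5, a male of father M33, had a mean centred level of the higher members of -0.3226, and the other neither libraries in the rule had -0.2013 to -0.1816. Of the other libraries of M33, personal only replicate 5 had the lowest level of its group, -0.345, and neither replicate 4 the highest of its group, -0.1816.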

How the results depend on the processing

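With all 29 libraries 35 of the 100 members were chosen again, with neither replicate 3 added alone 37, and with both replicate 7 added alone 84. Using 1 mean per father and personal condition kept 45, Welch's form of the t 61, an absolute t under 0.5 for personal exposure 48 and one under 2 kept 40. Leaving out a neither library or a father in turn kept 34 (without father M33) to 66 (without father M9). TMM scaling of the recovered reads kept 95, no filter 98, a filter on all libraries 90 and sex as a term 74. Every member chosen again kept its direction.

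For members chosen on these differences, the median paternal difference was 0.265 to 0.308 for higher and -0.274 to -0.254 for lower members as libraries or fathers were left out, and 0.355 and -0.295 with all 29 libraries. A covariate for reads, chosen after seeing the data, gave 0.287 and -0.258.

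The 2 members called by sex became 1 with all 29 libraries (3.15% of genes tested) and 1 with lane as a term (3.22%). They became 3 in limma-voom (6.61%), and 0 to 2 as libraries or fathers were left out (3.09% to 3.69%). The fit with all 29 libraries took the labelled sex, which in both replicate 7 goes against its values. Members called between fathers numbered 2 without a sex term, where 3.88% of genes tested were called. They numbered 0 to 1 as libraries or fathers were left out (1 without M42, against 2.98% of genes tested). Over genes tested, limma-voom called 1097 by sex against 609 in limma, and the 520 called between fathers became 120 with lane as a term, 211 with all 29 libraries and 215 to 611 as fathers were left out. Lane and the sex difference of the paternal effect gave 0 members under each alternative that could be fitted. The latter called 1 gene outside the members without neither replicate 4. It could not be fitted without father M15, which leaves no male with both exposures. TMM scaling uses only reads in the table, so levels are higher and 17708 genes passed the filter. The causes of the other changes were not tested. No paired analysis was possible by replicate number because the numbers follow accession order. Shared fathers entered as the random block, and without it 2 members were called by sex, against 3.69% of genes tested. The few reads of the rarest members, the 4 neither fish in the rule and the 5 fathers per exposure limit the precision.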
